A study of Mus musculus with 10 samples.

Results

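The insulin-like growth factor (IGF) system was followed through the differentiation of MC3T3-E1 cells by way of 10 genes: the ligands Igf1 and Igf2, the receptors Igf1r and Igf2r, and the binding proteins Igfbp2, Igfbp3, Igfbp4, Igfbp5, Igfbp6 and Igfbp7. They were found by Ensembl identifier among the 40620 genes of the deposited count table, and each of the 10 had 1 row there. MC3T3-E1 is a mouse line of pre-osteoblasts derived from calvaria, used here as a single subclone. RNA sequencing was done at 5 stages, in 2 replicates per stage named A and B. Subconfluent and confluent cells were kept in growth medium, and the cells of 24 h, 14 d and 21 d had been given differentiation medium for that time, to which ascorbic acid (50 µg/ml) and β-glycerophosphate (10 mM) were added. From confluence on, time in culture, cell density and medium therefore changed together and cannot be told apart.

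In the IGF system, both ligands signal mainly through the tyrosine kinase receptor encoded by Igf1r, and insulin receptors can also bind them. Igf2r, the cation-independent mannose 6-phosphate receptor, takes up IGF2 and sends it to lysosomes. The binding proteins hold the ligands in the pericellular space and prolong or limit their action, and proteases that cleave them set the ligands free. Bone matrix is a rich store of IGFs, and osteoblasts make ligands, receptors and binding proteins.

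Libraries held between 44736156 and 162939333 counts in genes. The sources do not say that the 2 replicates of a stage were separate cultures, so p-values measure only the spread between these libraries. All 6 osteoblast markers examined (Runx2, Sp7, Alpl, Col1a1, Ibsp, Bglap) were above 1 RPKM at every stage. RPKM gives reads scaled to gene length and to library depth. The 6 summed to 5610 RPKM in subconfluent cells, 6500 at confluence, 6280 at 24 h, 15200 at 14 d and 8770 at 21 d. Col1a1 made up most of each sum, with means of 5550 RPKM in subconfluent cells, 9710 at 14 d and 5090 at 21 d. Ibsp had means of 15.9, 4230 and 2540 at the same stages. None of 4 adipocyte, 4 endothelial and 4 muscle markers had a mean above 1 RPKM at any stage. Fabp4 of the adipocyte list measured 0.929 and 1.06 RPKM at 24 h. By their means Csf1r and Itgam of 4 macrophage markers were above 1 RPKM, while Ptprc and Adgre1 were not, and that list summed to 7.63 to 10.3 RPKM. Col2a1 and Sox9 of 4 chondrocyte markers were also above it, and the list summed to 54.2 to 238 RPKM with its lowest level at 24 h and its highest at 14 d. Their part in the results below was not tested. In bulk RNA, fewer cells that express a gene and less RNA per cell cannot be told apart. Replicates at 24 h differed more than others: the log2 ratio of A to B had an SD of 0.672 across 16133 genes, against 0.282 to 0.321 at the other 4 stages. By their column names, the libraries of 14 d and 21 d carried other index sequences than those of the first 3 stages. A difference between early and late stages therefore cannot be told apart from one between these sets of libraries.

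The genes lie on 7 chromosomes of GRCm38, some of them beside another gene of the system. Igf2 (chromosome 7, 142650766 to 142666816, minus strand) lies 72622 bases from H19, a long noncoding RNA on the same strand. Igfbp2 (chromosome 1, 72824503 to 72852474, plus strand) and Igfbp5 (72857932 to 72874884, minus strand) face each other tail to tail, 5457 bases apart. Igfbp3 (chromosome 11, 7206086 to 7213923, minus strand) lies 3539 bases from Igfbp1. Igfbp4 is on chromosome 11 as well, at 99041244 to 99054392 on the plus strand. Promoter sequence from RefSeq (GRCm38.p6) was found for all 10 members, in 14 windows that hold the 250 bases before an annotated start. Shown is 1 window for each of the 3 members that were called higher at both late stages, Igf2, Igfbp4 and Igfbp2. The window of Igfbp3, which had no reads, is shown as well. All are written 5′ to 3′ on the gene's strand, at chr7:142657497-142657746 (minus) for Igf2, chr11:99040994-99041243 (plus) for Igfbp4, chr1:72824230-72824479 (plus) for Igfbp2 and chr11:7213924-7214173 (minus) for Igfbp3. Capitals mark matches on either strand to TATAAA (the TATA box), GGGCGG (the GC box), CACGTG (the E-box) or AACCACA (a RUNX-type element, which reads TGTGGTT on the other strand).
Igf2: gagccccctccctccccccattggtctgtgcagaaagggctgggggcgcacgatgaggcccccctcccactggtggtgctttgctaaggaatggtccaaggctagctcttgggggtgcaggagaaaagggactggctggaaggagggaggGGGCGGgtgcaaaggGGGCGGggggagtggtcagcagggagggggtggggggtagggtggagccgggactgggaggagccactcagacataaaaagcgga
Igfbp4: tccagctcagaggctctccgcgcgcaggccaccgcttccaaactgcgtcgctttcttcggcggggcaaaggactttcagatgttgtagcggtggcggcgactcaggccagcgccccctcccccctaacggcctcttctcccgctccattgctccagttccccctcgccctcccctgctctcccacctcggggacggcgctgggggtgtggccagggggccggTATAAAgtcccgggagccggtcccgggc
Igfbp2: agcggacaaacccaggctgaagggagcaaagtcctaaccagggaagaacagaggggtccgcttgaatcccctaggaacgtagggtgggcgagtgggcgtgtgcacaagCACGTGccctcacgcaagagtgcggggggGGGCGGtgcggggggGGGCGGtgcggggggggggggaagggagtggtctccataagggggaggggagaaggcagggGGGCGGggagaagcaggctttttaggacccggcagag
Igfbp3: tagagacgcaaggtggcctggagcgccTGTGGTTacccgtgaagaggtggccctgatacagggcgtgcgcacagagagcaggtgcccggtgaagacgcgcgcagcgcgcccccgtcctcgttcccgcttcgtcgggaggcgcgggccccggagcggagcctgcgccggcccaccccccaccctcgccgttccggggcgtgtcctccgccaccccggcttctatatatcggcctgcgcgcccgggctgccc

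Igfbp4 has a TATAAA at position −28 from its start, and among the 14 windows the only other match is the reverse form in Igfbp6. TATAAA was found in 12.4% of all 32851 annotated windows. GC boxes lie in 6 of the 14 windows, from 5 members, and in 32.7% of all windows. The E-box is in 2 windows, those of Igf2r and the Igfbp2 start shown, against 6.02% of all windows. The RUNX-type element was found in Igfbp3 alone, at position −223, against 4.4% of all windows. Igf2 has 4 annotated starts among these windows, and counts per gene do not tell which was used. Of the Igf2 and Igfbp2 windows not shown, that of Igf2 beginning at base 142658805 has 1 match and the others have 0. A match is a description of letters and shows no binding.

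The ligands changed places. Igf1 transcripts fell and Igf2 transcripts rose, so that Igf1 was the more abundant ligand RNA in growing cells and Igf2 at 14 d and 21 d. Igf1 encodes the growth factor best known as the mediator of growth hormone, and its libraries A and B measured 8.37 and 8.17 RPKM in subconfluent cells, 4.67 and 4.10 in confluent cells, 2.79 and 3.37 at 24 h, 1.73 and 1.70 at 14 d, and 0.953 and 1.07 at 21 d. No 2 successive stages overlapped, and each was lower than the one before. The change from subconfluent cells to 21 d was −2.91 on the log2 scale (SE 0.11, adjusted p = 3.6e-06, edgeR's quasi-likelihood test with Benjamini-Hochberg adjustment), or 7.52-fold lower. Of the 4 single steps, confluence (log2 fold change −0.94, adjusted p = 0.0048), 24 h to 14 d (−0.72, adjusted p = 0.0055) and 14 d to 21 d (−0.83, adjusted p = 0.0033) passed the p threshold by the same test, and the first 24 h of differentiation did not (−0.42, adjusted p = 0.065). The step at confluence missed the threshold without subconfluent replicate A (adjusted p = 0.054) or confluent replicate B (0.061), and the step from 24 h to 14 d without 14 d replicate A (0.053) or B (0.056) and in a fit of its 4 libraries alone (0.11).

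Igf2, the fetal growth factor expressed from the paternal allele in most tissues, was close to silent in growing cells. Its libraries A and B held 0.373 and 0.492 RPKM (181 and 72 counts) in subconfluent cells, 0.767 and 0.819 in confluent cells, 3.96 and 4.83 at 24 h, 129 and 139 at 14 d, and 127 and 114 at 21 d. The first 4 stages rose without overlap and the last did not continue the rise. In the fitted counts Igf2 was 5.87-fold higher at 24 h than at confluence (log2 fold change 2.55, SE 0.16, adjusted p = 5.6e-04) and 33.4-fold higher at 14 d than at 24 h (5.06, SE 0.17, adjusted p = 2.8e-05). From 14 d to 21 d the value was −0.23 (SE 0.14, adjusted p = 0.40). Over the whole course it was 306-fold higher at 21 d than in subconfluent cells (log2 fold change 8.26, SE 0.20, adjusted p = 1.6e-06). The step at confluence was smaller (0.87, adjusted p = 0.032) and missed the threshold when any 1 of its 4 libraries was left out (adjusted p = 0.058 to 0.22). The exons of Igf2 share 98 bases with the antisense gene Igf2os, which had at most 155 counts in any library. They share 3596 with Gm49394 on the same strand, which has no row in the deposited count table.

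As a ratio of RPKM, Igf1 to Igf2 was 19.5 ± 4.15 (SD, n = 2) in subconfluent cells, 5.55 ± 0.762 at confluence and 0.70 ± 0.00484 at 24 h. It was 0.0128 ± 0.000898 at 14 d and 0.00847 ± 0.00133 at 21 d. By RPKM the ligands thus crossed between confluence and 24 h of differentiation medium, in libraries that carried the same index pair. This placing rests on the correction for gene length, since the ratio of uncorrected counts was 11.6 at confluence, 1.47 at 24 h and 0.0269 at 14 d, which puts the crossing after 24 h. Among 40602 genes ranked by mean RPKM, Igf2 moved from rank 16855 in subconfluent cells to rank 1225 at 14 d, while Igf1 went from rank 9000 to rank 14217 over the same interval.

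**Figure D1:**
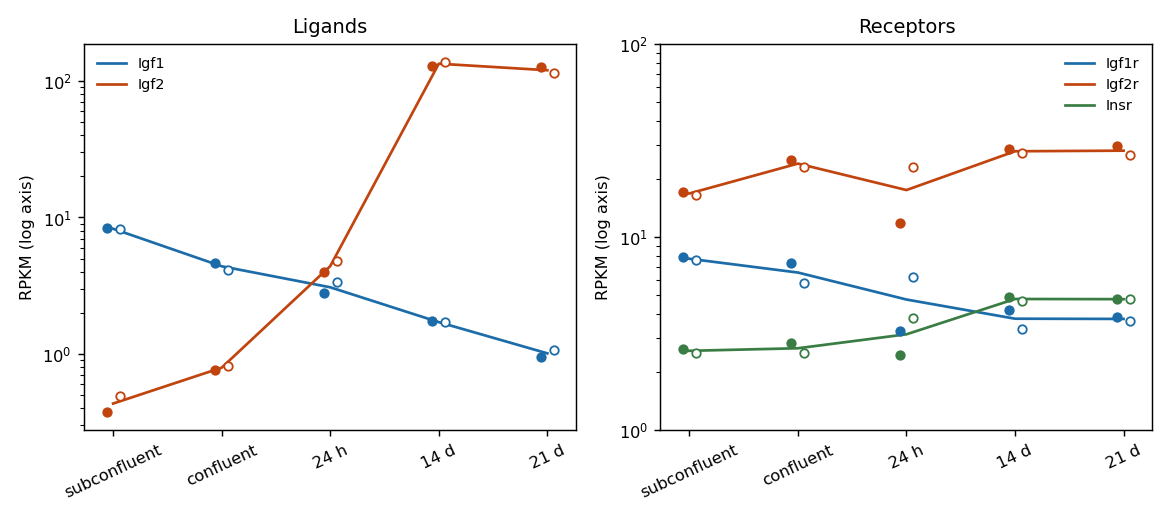
RPKM on a log axis at the 5 stages for the ligands (left) and the receptors with Insr (right); filled points are replicate A, open points replicate B, and lines join the stage means. On this length-corrected scale Igf1 and Igf2 cross between confluence and 24 h (by uncorrected counts, after 24 h, with a ratio of 1.47 there), and the replicates of Igf2r at 24 h (11.8 and 23.1 RPKM) lie farther apart than those of any other stage.

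The receptors moved far less than the ligands. Igf1r, the signalling receptor, measured 7.83 and 7.60 RPKM in subconfluent cells, 7.30 and 5.78 in confluent cells, 3.26 and 6.22 at 24 h, 4.19 and 3.34 at 14 d, and 3.85 and 3.67 at 21 d. Every library of 14 d and 21 d lay below every library of the subconfluent and confluent stages, whereas the 24 h replicates spanned most of that range. Igf1r was 0.92 lower on the log2 scale at 21 d than in subconfluent cells (SE 0.26, adjusted p = 0.020), under the 2-fold limit, and it missed the p threshold when any 1 of the 4 libraries compared was left out (adjusted p = 0.053 to 0.096). At 14 d against confluence the value was −0.58 (SE 0.26, adjusted p = 0.13), and it passed without the 24 h libraries in the fit (adjusted p = 0.0097).

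For Igf2r, the clearance receptor, the values were 17.1 and 16.5 RPKM in subconfluent cells, 24.9 and 23.0 in confluent cells, 11.8 and 23.1 at 24 h, 28.5 and 27.1 at 14 d, and 29.5 and 26.6 at 21 d. Late libraries were all higher than those of the first 2 stages, and replicate A at 24 h was the lowest of all 10. The log2 difference between 21 d and subconfluent cells was 0.85 (SE 0.24, adjusted p = 0.021), with adjusted p = 0.061 to 0.10 when 1 of the 4 libraries was left out. Across 21 alternative fits, this difference passed the p threshold in 14. From subconfluent cells to 21 d Igf1r was lower and Igf2r higher, but their steps were not all opposite. At 24 h against confluence both had negative log2 fold changes (−0.39 and −0.38), neither past the p threshold. The RPKM ratio of Igf1r to Igf2r was 0.458 ± 0.00126 (SD, n = 2) in subconfluent cells, 0.272 ± 0.0298 at confluence and 0.273 ± 0.00427 at 24 h. It was 0.135 ± 0.0167 at 14 d and 0.134 ± 0.00519 at 21 d. Both replicates at 24 h gave nearly the same ratio (0.276 and 0.270) although each receptor differed 1.9-fold or more between them. The level of Igf1r itself rests on the gene length in the deposited table, 4468 bases, where the annotation has 16791 exon bases.

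Insr, the insulin receptor and no member of the 10, went the other way from Igf1r. It stood at 2.62 and 2.51 RPKM in subconfluent cells and 4.76 and 4.75 at 21 d, a log2 fold change of 1.01 (SE 0.16, adjusted p = 0.0017). That value lies at the 2-fold limit and came out under it with DESeq2 or its size factors, without a filter, with library size alone, and without subconfluent replicate B or 24 h replicate B. The RPKM ratio of Igf1r to Insr was 3.0 ± 0.0237 in subconfluent cells, 1.48 ± 0.213 at 24 h and 0.791 ± 0.0253 at 21 d (SD, n = 2). By uncorrected counts it was 1.4, 0.689 and 0.367 at the same stages. Its size and the stage at which it fell below 1 thus rest on the correction for gene length.

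The binding proteins showed 4 patterns. Igfbp4 rose at every step, Igfbp2 rose by 14 d, Igfbp5 and Igfbp6 had no call up to 14 d and were called higher at 21 d, and Igfbp7 was lower at the end than at the start. Igfbp3 was not detected.

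Igfbp4, a binding protein that mostly restrains IGF action and is freed of its ligand by the protease PAPP-A, measured 4.52 and 4.63 RPKM in subconfluent cells, 10.1 and 10.9 in confluent cells, 25.4 and 25.5 at 24 h, 112 and 108 at 14 d, and 262 and 240 at 21 d. Replicates were close at every stage and no stage overlapped another. It was the only member called higher in all 6 comparisons. The single steps were 1.18 at confluence (SE 0.09, adjusted p = 0.0017), 1.37 at 24 h (SE 0.09, adjusted p = 7.9e-04), 2.23 at 14 d (SE 0.10, adjusted p = 5.0e-05) and 1.12 at 21 d (SE 0.09, adjusted p = 7.2e-04), all as log2 fold changes. From subconfluent cells to 21 d the counts were 59.4-fold higher (5.89, SE 0.11, adjusted p = 8.3e-07). At 21 d Igfbp4 ranked 858 of 40602 genes by RPKM, from 11349 in subconfluent cells.

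Igfbp2, which is abundant in fetal tissue and binds IGF2 with high affinity, measured 3.85 and 4.76 RPKM in subconfluent cells, 3.91 and 6.66 in confluent cells, 9.27 and 6.18 at 24 h, 33.1 and 34.7 at 14 d, and 18.7 and 18.5 at 21 d. Confluent cells overlapped both subconfluent cells and 24 h, while both 24 h libraries lay above both subconfluent ones. Both late stages lay above all of the first 3. At 14 d it was 7.39-fold higher than at confluence (log2 fold change 2.89, SE 0.31, adjusted p = 6.3e-04). The value from 14 d to 21 d was −0.94 (SE 0.29, adjusted p = 0.093), and it passed the p threshold in a fit of these 4 libraries alone (−0.90, adjusted p = 0.0017).

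Igfbp5, a binding protein that attaches to bone matrix, rose late. It measured 6.55 and 5.78 RPKM in subconfluent cells, 8.65 and 7.87 in confluent cells, 5.30 and 9.55 at 24 h, 6.29 and 6.38 at 14 d, and 19.2 and 20.1 at 21 d. Both 21 d libraries were above all 8 others. The log2 fold change from 14 d to 21 d was 1.56 (SE 0.22, adjusted p = 0.0050), a call that was lost without either 14 d library (adjusted p = 0.054 without A and 0.051 without B). Against subconfluent cells it was 1.79 (SE 0.22, adjusted p = 4.4e-04).

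Igfbp6, which prefers IGF2 over IGF1, followed a similar course. It measured 21.2 and 22.9 RPKM in subconfluent cells, 16.1 and 19.1 in confluent cells, 19.9 and 12.1 at 24 h, 17.3 and 15.9 at 14 d, and 62.6 and 65.0 at 21 d. Again the 21 d libraries alone stood above the rest, by 1.87 on the log2 scale over 14 d (SE 0.24, adjusted p = 0.0035) and by 1.65 over subconfluent cells (SE 0.24, adjusted p = 0.0010). The comparison of 21 d with 14 d lies within the set of libraries with the same index pair.

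Igfbp7, a related protein with low affinity for IGFs, had the highest RPKM of the members in growing cells. Without correction for length Igf2r led there (109 CPM, counts scaled to the library total, against 88.6 for Igfbp7 in subconfluent cells), and the length of Igfbp7 in the deposited table was 948 bases where the annotation has 1209 exon bases. It measured 123 and 147 RPKM in subconfluent cells, 88.5 and 87.2 in confluent cells, 122 and 126 at 24 h, 88.1 and 99.3 at 14 d, and 60.0 and 59.7 at 21 d. The level went down, up and down again, and 21 d was below all other libraries. It was 2.08-fold lower at 21 d than in subconfluent cells (log2 fold change −1.06, SE 0.11, adjusted p = 2.2e-04), and leaving out subconfluent replicate B brought it under the 2-fold limit (−0.96, adjusted p = 0.0018). The steps at confluence (−0.65, adjusted p = 0.028), at 24 h (0.59, adjusted p = 0.030) and from 14 d to 21 d (−0.72, adjusted p = 0.0077) passed the p threshold without reaching 2-fold, and each of them missed it when 1 library of its own comparison was left out, other than the 24 h libraries and 14 d replicate A. Exons of Igfbp7 share 85 bases with Polr2b on the other strand, and whether counting used strand is not given in the sources used here.

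Igfbp3, the main carrier of IGFs in serum, had 0 counts in all 10 libraries. A count of 3, taken as the limit that a count of 0 allows, would correspond to 0.00889 to 0.031 RPKM depending on the library, for counting error only. Its neighbour Igfbp1 was also at 0 in all libraries. They lie within a run of 8 consecutive genes of the table without a count in any library (chromosome 11, 7183153 to 8114094), of which 3 are protein-coding. On either side of this run, Adcy1 reached at most 2 counts and the pseudogene Gm11989 had 8891 or more. Of 21313 protein-coding genes in the table, 15.1% were at 0 throughout.

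**Figure D2:**
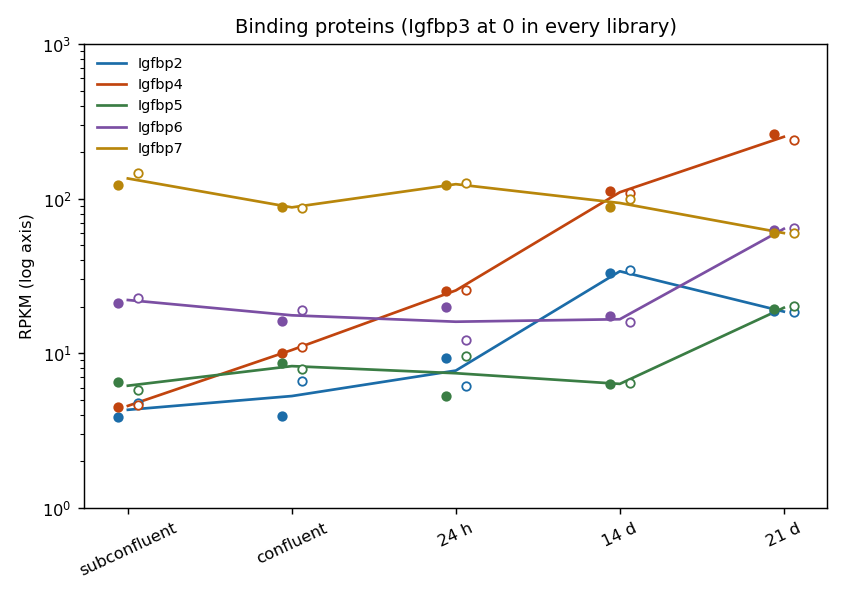
RPKM on a log axis of the 5 detected binding proteins at the 5 stages; filled points are replicate A, open points replicate B, and lines join the stage means. Igfbp4 goes from a mean of 4.57 to 251 RPKM, Igfbp7 from 135 to 59.9, and Igfbp5 and Igfbp6 rise after 14 d.

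Together the binding proteins summed to 172.1 ± 18.83 RPKM (SD, n = 2) in subconfluent cells, 129.5 ± 3.077 at confluence, 180.4 ± 1.949 at 24 h, 260.3 ± 5.142 at 14 d and 412.6 ± 13.39 at 21 d. Their composition was turned over. Igfbp7 made up 78.3% ± 1.57 of the sum in subconfluent cells, 67.9% ± 2.36 at confluence and 68.6% ± 2.22 at 24 h, then 36.0% ± 2.31 at 14 d and 14.5% ± 0.422 at 21 d. Igfbp4 went from 2.67% ± 0.249 through 8.12% ± 0.257, 14.1% ± 0.177 and 42.2% ± 1.94 to 60.7% ± 1.78 at the same stages. Counted as reads with no correction for length, the share of Igfbp7 went from 60.4% to 4.16%. That of Igfbp4 went from 9.55% to 80.9%, so these 2 shares moved the same way from the first stage to the last. Their timing differed. By reads Igfbp4 held 37.6% and Igfbp7 39.3% at 24 h, and 70.6% and 13% at 14 d. Igfbp2 reached its highest share of the RPKM at 14 d (13.0% ± 0.176, and 9.11% of the reads, also the highest). Igfbp6 had its highest share of the RPKM at 21 d (15.5% ± 0.913, against 12.9% ± 0.713 in subconfluent cells), but by reads its share was highest in subconfluent cells (11.6%) and stood at 5.19% at 21 d.

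**Figure D3:**
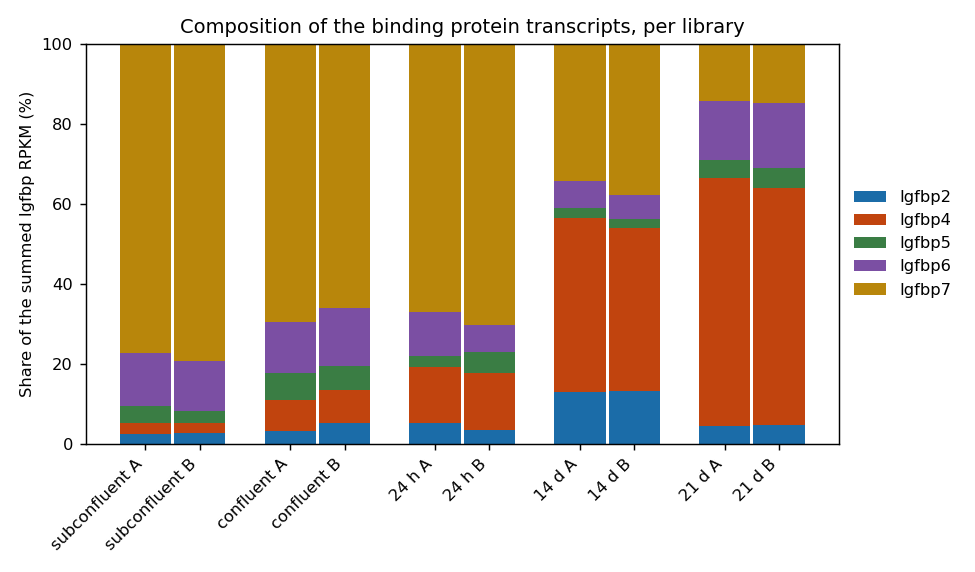
Share in percent of each binding protein in the summed Igfbp RPKM, 1 bar per library, A and B side by side; Igfbp3 adds 0. Igfbp7 fills 78.3% on average in subconfluent cells, and Igfbp4 60.7% at 21 d.

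The order of the 10 members is given by RPKM, that is, per gene length. In subconfluent cells Igfbp7 led (135 ± 17.5 RPKM, SD, n = 2), followed by Igfbp6, Igf2r, Igf1, Igf1r, Igfbp5, Igfbp4, Igfbp2, Igf2 and Igfbp3, and of these neighbours only Igfbp4 and Igfbp2 overlapped. At confluence Igf1r, Igfbp2 and Igf1 overlapped in succession. At 24 h the neighbours Igf2r and Igfbp6 overlapped, as did Igfbp2, Igfbp5, Igf1r and Igf2 in succession. At 14 d the order was Igf2 (134 ± 7.66), Igfbp4 (110 ± 2.88), Igfbp7, Igfbp2, Igf2r, Igfbp6, Igfbp5, Igf1r, Igf1 and Igfbp3, and at 21 d Igfbp4 (251 ± 15.5), Igf2 (120 ± 8.91), Igfbp6 (63.8 ± 1.69), Igfbp7 (59.9 ± 0.204), Igf2r, Igfbp5, Igfbp2, Igf1r, Igf1 and Igfbp3. No neighbours overlapped at the last 2 stages.

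A gene was called when its adjusted p-value was below 0.05 and its change exceeded 2-fold, and 9 of the 10 members were tested among 20808 genes, Igfbp3 being filtered out. At confluence against subconfluent cells 1 member was called higher (Igfbp4) and 0 lower, where 1% of all genes tested were called higher and 0.423% lower. At 24 h against confluence 2 were called higher (Igf2 and Igfbp4) and 0 lower, with 1.76% and 0.365% of all genes. A fit of these 4 libraries alone called neither (adjusted p = 0.092 for Igf2 and 0.16 for Igfbp4, with log2 fold changes of 2.56 and 1.37).

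At 14 d against 24 h, 3 members were called higher (Igf2, Igfbp2 and Igfbp4) and 0 lower, beside 4.47% and 1.51% of all genes. Igfbp2 lost its call in a fit of these 4 libraries (2.21, adjusted p = 0.053). At 21 d against 14 d, 3 were called higher (Igfbp4, Igfbp5 and Igfbp6) and 0 lower, beside 1.52% and 2.45%. At 14 d against confluence 3 were higher (Igf2, Igfbp2 and Igfbp4) and 1 lower (Igf1, at −0.99 and under the 2-fold limit with limma on log2(RPKM + 1)), beside 9.15% and 3.85%. At 21 d against subconfluent cells 5 were higher (Igf2, Igfbp2, Igfbp4, Igfbp5 and Igfbp6) and 2 lower (Igf1 and Igfbp7), beside 16.3% and 11.3%. The median log2 fold change of the 9 members was 0.31 in the former and 1.65 in the latter, against 0.03 and 0.04 for all genes tested. Comparisons that use the same stage share its libraries.

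In the F test over the 5 stages, 8 of the 9 members tested had an adjusted p-value below 0.05, beside 48.9% of all genes tested. Igf1r was the exception (adjusted p = 0.061), and it passed without the 24 h libraries (adjusted p = 0.0018). Igf2r stood close to the threshold (adjusted p = 0.040) and missed it without any 1 library of the 4 stages other than 24 h. With all 10 libraries it also missed the threshold when scaled by library size alone (adjusted p = 0.17). The F test of limma gave adjusted p = 0.094 on log2(RPKM + 1) and 0.098 on log2(RPKM + 0.1).

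**Figure D4:**
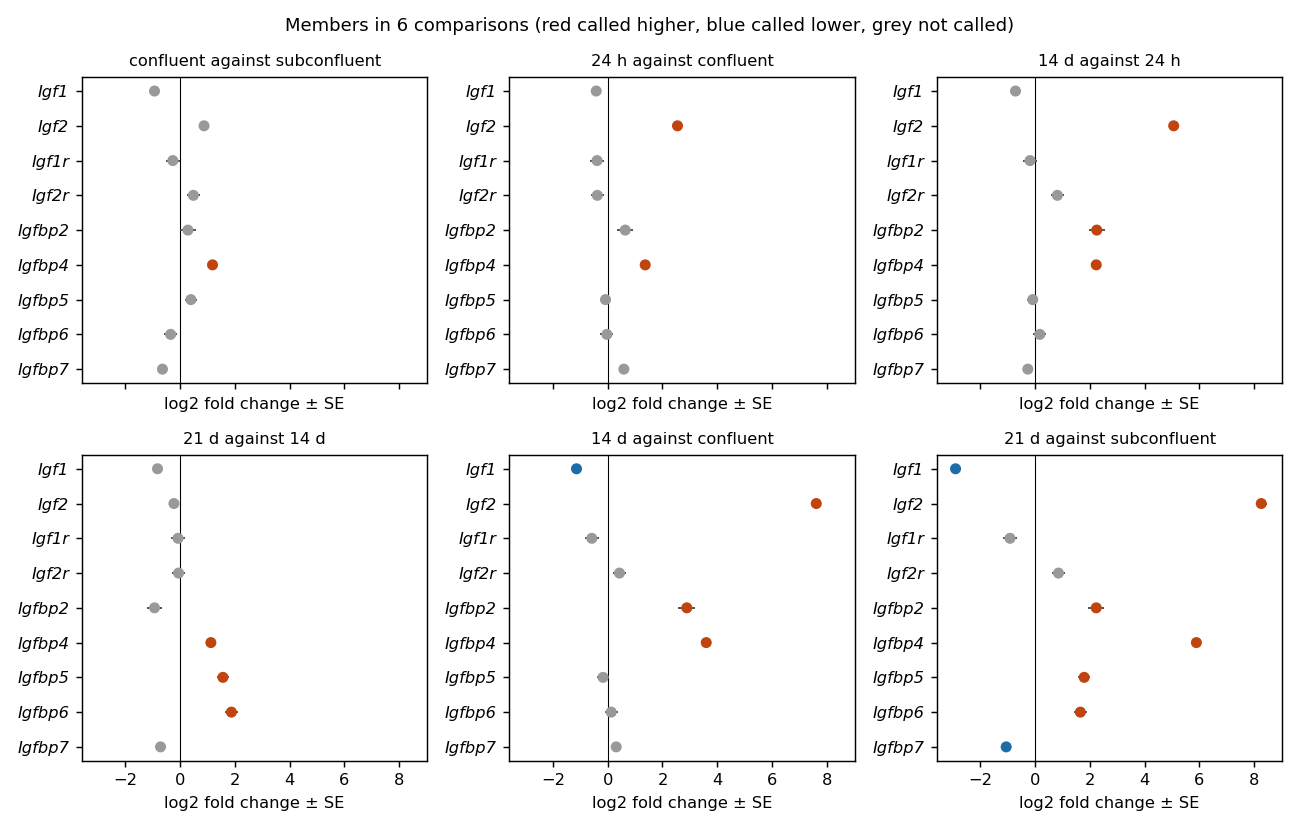
Log2 fold change with its standard error for the 9 members tested, in 6 comparisons; red marks members called higher, blue those called lower and grey those not called, and where no bar shows it is shorter than the point. Igf2 is at 7.62 at 14 d against confluence and 8.26 at 21 d against subconfluent cells, the largest value in both panels.

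At 24 h, 5 members differed more than 1.5-fold between replicates, against 1 at confluence and 0 at each other stage. Igf1r, Igf2r and Igfbp5 were lower in A, whereas Igfbp2 and Igfbp6 were higher in A. Igf2, Igfbp4 and Igfbp7 were close in the 2 libraries, with 3.96 and 4.83, 25.4 and 25.5, and 122 and 126 RPKM. Leaving out the 24 h libraries changed no call of a member in the 4 comparisons that do not use them.

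Other genes of the IGF pathway were examined as a list of 49, of which 46 were tested. At 14 d against confluence 7 were called higher and 2 lower, beside 9.15% and 3.85% of all genes tested. At 21 d against subconfluent cells 12 were higher and 3 lower, beside 16.3% and 11.3%. Their median log2 fold changes were 0.22 and 0.13, against 0.03 and 0.04 for all genes tested. Over the 5 stages 28 of the 46 passed the F test, beside 48.9% of all genes tested.

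Among factors that hold or release the ligands, Igfals encodes the acid-labile subunit that joins IGF and IGFBP3 or IGFBP5 in serum. It was scarce, at 0.157 and 0.0918 RPKM in subconfluent cells and 1.18 and 1.16 at 21 d (log2 fold change 3.28, SE 0.27, adjusted p = 6.6e-05). Lrp1, an endocytic receptor that also binds IGFBP3, and Tmem219, known as an IGFBP3 receptor, were higher at 21 d by 1.14 (adjusted p = 0.0050) and 1.22 (adjusted p = 0.0055), in cells without detectable Igfbp3. Htra1, a secreted protease that cleaves IGFBPs, measured 6.24 and 4.93 RPKM in subconfluent cells, 14.6 and 14.2 at confluence, 34.6 and 30.7 at 24 h, 57.0 and 58.2 at 14 d, and 78.5 and 85.6 at 21 d. It thus rose beside Igfbp4 and was 15.9-fold higher at 21 d than in subconfluent cells (3.99, SE 0.15, adjusted p = 3.7e-06).

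Pappa, which encodes the IGFBP4 protease PAPP-A, stayed below 1 RPKM in every library. It measured 0.905 and 0.745 RPKM in subconfluent cells, 0.425 and 0.385 at confluence, 0.245 and 0.573 at 24 h, 0.141 and 0.127 at 14 d and 0.602 and 0.526 at 21 d. Its lowest point was at 14 d, 1.37 below confluence on the log2 scale (log2 fold change −1.37, SE 0.34, adjusted p = 0.020), a call lost when any 1 of the 4 libraries was left out. Stc2, an inhibitor of PAPP-A, had at most 1 count in each library up to 24 h and 64, 24, 51 and 113 counts in the libraries of 14 d and 21 d, and was called higher in both comparisons. With so few counts at the early stages no fold is given. The call for Stc2 was not made with limma on RPKM. Stc1 had 0 counts in all libraries. Pappa2, also on the pathway list, was far more abundant than Pappa. Its means were 91 RPKM in subconfluent cells, 71.9 at confluence, 74.7 at 24 h, 94.9 at 14 d and 81.4 at 21 d. Its replicates at 24 h measured 44 and 105 RPKM. Pappa2 was not called by the edgeR test at 14 d against confluence (0.62, adjusted p = 0.19) or at 21 d against subconfluent cells (−0.05, adjusted p = 0.92).

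H19, which neighbours Igf2 and is expressed from the other parental allele, measured 1.72 and 2.02 RPKM in subconfluent cells, 2.41 and 2.81 at confluence, 9.29 and 9.12 at 24 h, 127 and 163 at 14 d, and 48.6 and 57.1 at 21 d. It followed Igf2 up to 14 d and then parted from it. At 14 d H19 was 64.4-fold higher than at confluence (6.01, SE 0.20, adjusted p = 7.8e-06), and from 14 d to 21 d it fell by 1.53 on the log2 scale (SE 0.17, adjusted p = 0.0016), where Igf2 had −0.23 (adjusted p = 0.40). The difference between these changes was not tested. Igf2bp3, an RNA-binding protein of the Igf2 message that is typical of fetal and growing cells, was lower at 21 d, with means of 3.35 RPKM in subconfluent cells and 0.525 at 21 d (−2.57, SE 0.46, adjusted p = 0.0028).

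Upstream, the growth hormone receptor gene Ghr measured 4.33 and 4.32 RPKM in subconfluent cells and 14.3 and 13.6 at 21 d (1.80, SE 0.12, adjusted p = 2.2e-05), while Igf1 itself was lower. Jak2, the kinase bound to that receptor, was 1.24 higher at 14 d than at confluence (SE 0.15, adjusted p = 9.7e-04). Below the receptor, Irs1, the adapter that links Igf1r to PI3-kinase, had means of 26.4 RPKM in subconfluent cells and 11.7 at 21 d, with 35.2 and 35.6 in the libraries of 24 h. At 14 d against confluence Irs1 had a log2 fold change of −0.01 (adjusted p = 0.96) and at 21 d against subconfluent cells −1.05 (SE 0.09, adjusted p = 8.3e-05). Grb14, an adapter that inhibits these receptors, was higher by 1.04 in the latter comparison (adjusted p = 4.4e-04). The regulatory subunit Pik3r1 was higher by 1.83 (adjusted p = 1.4e-04) and the catalytic subunit Pik3cb lower (−1.11, adjusted p = 0.0041). The calls for Grb14 and Pik3cb were lost without subconfluent replicate B and A, respectively. Foxo3 and Foxo4, transcription factors that AKT keeps out of the nucleus, were higher by 1.34 (adjusted p = 1.3e-04) and 1.17 (adjusted p = 5.4e-05).

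**Figure D5:**
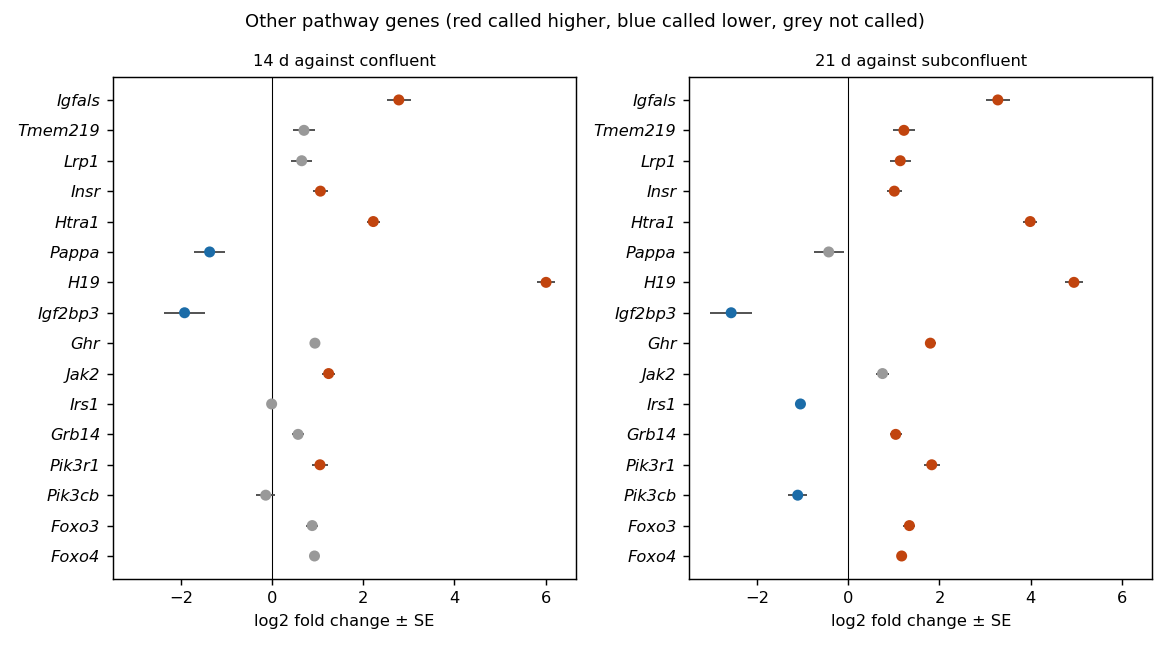
Log2 fold change with its standard error for 16 named genes of the pathway in 14 d against confluent and 21 d against subconfluent cells; red marks genes called higher, blue lower and grey not called, and Stc2 is left out for its low counts. H19 (6.01 and 4.95) and Htra1 (2.22 and 3.99) stand apart on the right, and Igf2bp3 (−1.92 and −2.57) on the left.

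Genes whose log2 CPM followed a member most closely were sought among the 12081 that averaged 5 CPM or more. The measure was Pearson's r over the 10 libraries, which make up only 5 stages, and it is given as a description. Igf1 was most like Npr3 (r = 0.9965), Ccnyl1 (0.9957) and Gm12428 (0.9945). Igf2 was most like Dtx4 (0.9957), Slc36a2 (0.9948) and C3 (0.9944). Igfbp4 was most like Slc25a42 (0.9954), Ip6k1 (0.9952) and Tvp23b (0.9948). Igfbp2 had H19 as its closest gene (0.981), followed by Habp4 (0.9805) and Mapre3 (0.9801). For Igfbp5 they were Kcnt2 (0.9858), Rnf213 (0.9797) and Nfxl1 (0.9785), and for Igfbp6 Cyb5r1 (0.9765), Ddit3 (0.9737) and Trib3 (0.9733). Likeness was weakest for Igfbp7, where Rras2 (0.9569), Myadm (0.9298) and Cdc123 (0.9285) led. For Igf2r it was highest with Snx30 (0.9854), Stard9 (0.9813) and Rubcn (0.9799).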

How the data were processed

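RNA sequencing of MC3T3-E1 cells (51 bp paired-end reads) was analysed from the tables the authors deposited. The submitters' processing notes name FastQC, TopHat2 2.0.9, R 3.0.1 and mm10. The counting tool, its annotation and its use of strand are not given in the sources used here. The deposited counts are whole numbers of reads per gene for 40620 genes. The authors also deposited RPKM values, computed from these counts, gene length and a depth of 31000000 to 108000000 reads per library. Summed counts were 1.44 to 1.6 times that depth. For the 2 libraries sequenced in 2 lanes the merged column was used. The authors deposited 2 replicates per stage, grouped by the sample labels. Symbols came from GENCODE vM21 on GRCm38 and were found for 39547 identifiers.

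Counts were tested with edgeR 4.0.16 in R 4.3.3 (filterByExpr, 20808 genes kept, TMM, a quasi-likelihood fit of 5 groups to all 10 libraries, Benjamini-Hochberg adjustment over all genes tested). The standard error of a log2 fold change was obtained by dividing it by the root of its F statistic. Fold changes come from this fit and levels from RPKM. Alternatives used DESeq2 1.42.0, limma 3.58.1 on log2(RPKM + 1) or log2(RPKM + 0.1), other scalings, filters and samples. The script was tested on simulated data. Tables and plots were made with Python 3.11.15, pandas 2.3.3 and matplotlib 3.10.9.

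The members, the pathway list and the marker lists were chosen with earlier results of these data known. All 10 members, Igfbp1 and, per role in the pathway list, up to 4 called genes with the largest change in 14 d against confluent or 21 d against subconfluent cells were named, together with the 3 genes most like each member that passed the F test. Stc1, Pappa2, Ptprc and Adgre1 of these lists, and the genes that border Igfbp3, were named after their values were seen.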

Additional observations from a re-analysis of the deposited data

How the results depend on the processing

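Of 54 values (9 members in 6 comparisons), 29 passed the p threshold. Over 1116 values from the alternatives, 1006 kept their direction and side of the threshold, 54 missed it, 38 passed newly and 18 changed sign. Those 18 belong to 9 values that had not passed the threshold, 0 to one that had, and the cause was not tested. With 1 library left out, log2 fold changes ran from −0.16 to 0.61 for Igfbp2 at confluence (main 0.28), from −0.48 to 0.25 for Igfbp5 (main −0.08) and −0.50 to 0.33 for Igfbp6 (main −0.03) at 24 h against confluent cells, and at 14 d against 24 h from −0.55 to 0.24 for Igf1r (main −0.19), −0.42 to 0.28 for Igfbp5 (main −0.09) and −0.23 to 0.63 for Igfbp6 (main 0.17). At 21 d against 14 d they ran from −0.21 to 0.07 for Igf1r (main −0.08) and −0.13 to 0.00 for Igf2r (main −0.06). With library size alone and with limma on log2(RPKM + 1) and log2(RPKM + 0.1), these last values were 0.01, 0.00 and 0.01 for Igf1r and 0.02, 0.01 and 0.01 for Igf2r, and Igfbp6 at 14 d against confluent cells (main 0.13) was −0.10, −0.07 and −0.08. Calls of members without a fold limit numbered 4 at confluence against subconfluent cells (main 1) and 5 at 21 d against 14 d (main 3). With a 4-fold limit they numbered 0 at confluence, 1 at 24 h (main 2), 0 at 21 d against 14 d and 4 at 21 d against subconfluent cells (main 7). A fit of only the 2 stages called 0 at 24 h, with fewer libraries to estimate the spread. Pathway genes called at 14 d against confluent cells (main 9) numbered 21 without a fold limit, 4 with 4-fold and 5 with limma on log2(RPKM + 1), and at 21 d against subconfluent cells (main 15) 26, 5 and 9. With 1 library left out, member calls were 1 to 2 at confluence (2 without confluent replicate A, which added Igf1), 2 at 24 h, 3 to 4 at 14 d against 24 h, 2 to 3 at 21 d against 14 d, 4 at 14 d against confluent and 6 to 7 at 21 d against subconfluent cells. Pathway calls were 5 to 9 (5 without confluent replicate B) and 13 to 17, and the F test passed 7 to 9 members.

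Whether the letters A and B pair the libraries could not be settled. Over 10 pairs of stages the correlation of their deviations was −0.332 to 0.321, over 0.1 in 2. Those were subconfluent with 14 d (0.321), where A was the deeper library, and confluent with 21 d (0.162), where B was. Sequencing depth and a pairing by letter cannot be told apart in these values. With the replicate letter as a block, member calls stayed at 1, 2, 3, 3, 4 and 7 and pathway calls at 9 and 15, and the F test passed 7 members, without Igf2r (adjusted p = 0.066). Scaling by library size alone moved the median of all genes to −0.20 at 14 d against confluent cells, from 0.03. Ranks, shares and ratios moved in 59 of 85 values without length correction. With 2 replicates per stage, no level has a well-known spread.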

Other observations

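Replicate A at 24 h held counts from a stretch of chromosome 11 that no other library showed at that level. Npc1l1 (chromosome 11, 6211013 to 6230143) had 57252 counts there, or 420.6 CPM, against at most 17 counts elsewhere. Its neighbours Ddx56, Ogdh and Zmiz2 had 371.1, 680.9 and 508.8 CPM in that library, against at most 72.81, 148.4 and 45.6 CPM in the other 9. These genes were chosen after their values were seen. Igfbp1 and Igfbp3, farther along the same chromosome, had 0 counts in that library.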
